A study of Mus musculus with 17 samples.

Results

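Hprt and 9 other genes of purine nucleotide synthesis and salvage were followed in RNA-seq data of 17 mouse cell samples. The 10 genes, out of 28670 genes quantified, were Hprt, Aprt, Adk, Ppat, Gart, Paics, Adsl, Atic, Impdh1 and Impdh2. They were chosen by name, because Hprt RNA was low in all 6 Nanog-null samples, so the levels of Hprt in those samples are a description and were not tested. The question put to the other 9 genes was whether their RNA shifted along with that of Hprt. All 10 genes passed the filter on low values.

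Purine nucleotides are made in cells by a de novo route and by salvage routes. In the de novo route, Ppat takes the first committed step from phosphoribosyl pyrophosphate (PRPP), and Gart, Pfas, Paics, Adsl and Atic build the ring of inosine monophosphate (IMP), which is then turned into AMP or GMP. In the salvage routes, Hprt joins PRPP to hypoxanthine or guanine, Aprt joins it to adenine, and Adk phosphorylates adenosine. Loss of Hprt activity is widely used as a selectable marker in mouse embryonic stem cells, which grow without it because the de novo route remains.

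The Nanog-null samples were embryonic stem cells (ESC, 2 samples) and 1 clone each of induced pluripotent stem cells (iPSC), named G2 and G5 (2 samples each), all Nanog -/-, strain 129/B6 (v6.5), at passage 6. The wild-type (WT) samples were ESC (4, passage 10 to 15), iPSC (3), partially reprogrammed cells (piPSC, 2, clone B1, passage 6) and embryonic fibroblasts (MEF, 2, passage 2). Of these, WT ESC 1 and 2, WT iPSC 1 (passage 6) and the piPSC were 129/B6 (v6.5). WT ESC 3 and 4, WT iPSC 2 and 3 (passage 10 to 15) and the MEF were c57/b6. The sample codes start with AC for the 11 samples of 129/B6 (v6.5) and with JI for the 6 samples of c57/b6, and batch therefore cannot be told apart from strain. The labels' growth protocol, which all samples share, describes parental Nanog -/- ESC grown on feeders in 2i with LIF. It derives Nanog -/- MEF from E12.5 embryos that had received those ESC at the blastocyst stage, by sorting for constitutive GFP. Reprogramming used retroviral Oct4, Sox2 and Klf4, in some cases with c-Myc. The iPSC colonies, picked 20 days later, were kept on feeders in 2i with LIF, MEF in 10% FBS. As described, all Nanog-null samples go back to the parental Nanog -/- ESC. The Nanog genotype and any other feature of those ESC therefore cannot be told apart. No label says that replicates were separate cultures, and p-values therefore reflect spread among these samples, which may be technical.

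Depth was 17682401 to 43501951 assigned fragments in AC samples and 7795960 to 30077204 in JI samples. Nanog had 27.2 to 49.5 FPKM (fragments per kilobase of gene, scaled for depth) in Nanog-null samples, 270 to 762 FPKM in WT ESC and iPSC, 2.91 to 3.12 FPKM in piPSC and 0.0539 to 0.242 FPKM in MEF; the labels do not give the deleted part of the gene. Summed over 7 pluripotency genes, RNA was 2523 to 4452 FPKM in Nanog-null samples, 5726 to 8388 FPKM in WT ESC and iPSC of the AC batch, 7082 to 7468 FPKM in piPSC and at most 0.848 FPKM in MEF, with Pou5f1, Zfp42, Dppa5a, Tdgf1 and Sall4 at 0 in MEF. In piPSC the sum hides unequal genes: against WT iPSC, Pou5f1 was higher by 3.33, while Sox2, Tdgf1, Sall4, Zfp42, Utf1 and Dppa5a changed by -1.94, -2.34, -5.34, -5.56, -5.59 and -8.10 on the log2 scale. The sum hides unequal genes in Nanog-null cells too. Against WT ESC and iPSC, Sox2, Dppa5a, Tdgf1, Utf1 and Pou5f1 changed by -1.66, -1.57, -0.99, -0.96 and -0.31 on the log2 scale. Sall4 and Zfp42 were at -0.22 and 0.04 (limma adjusted p = 0.24 and 0.90). Summed over 8 primitive endoderm genes, RNA was 102 to 182 FPKM in Nanog-null samples and 6.08 to 17.7 FPKM in WT ESC and iPSC. That sum was 21.6 to 22.2 FPKM in piPSC and 89.4 to 90.7 FPKM in MEF. Ribosomal protein genes took 5.53% to 6.03% of the assigned fragments in Nanog-null samples and 3.91% in MEF. In WT ESC and iPSC they took 8.26% to 10.1% in AC samples and 20.4% to 27.7% in JI samples. These values moved with the Nanog-null and batch groupings, and their part in the results was not tested. In bulk samples, fewer cells of a type and less RNA per cell cannot be told apart.

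Promoter windows are shown for Hprt and for 4 of the 5 genes that were lower in Nanog-null cells, with Gart left out. They include the pair Ppat and Paics, which RefSeq places head to head. Each runs from 250 bases before to 50 bases after the annotated start, from RefSeq on GRCm38.p6, in lower case. Capitals mark matches, on either strand, to the E-box letters CACGTG (the same on both strands), the GC box letters GGGCGG or the TATA letters TATAAA. Across 32851 such windows, 7.15% held the E-box, 35.7% the GC box and 13.6% the TATA letters. Hprt is on the X chromosome, Ppat and Paics on chromosome 5, Atic on chromosome 1 and Impdh2 on chromosome 9.
Hprt (chrX:52987828-52988127, plus strand): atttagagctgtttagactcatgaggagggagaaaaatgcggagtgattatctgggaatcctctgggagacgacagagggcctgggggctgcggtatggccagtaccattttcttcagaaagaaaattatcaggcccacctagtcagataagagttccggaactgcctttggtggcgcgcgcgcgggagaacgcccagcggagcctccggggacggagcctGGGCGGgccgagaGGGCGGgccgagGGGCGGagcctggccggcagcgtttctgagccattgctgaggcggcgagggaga
Ppat (chr5:76951529-76951828, minus strand): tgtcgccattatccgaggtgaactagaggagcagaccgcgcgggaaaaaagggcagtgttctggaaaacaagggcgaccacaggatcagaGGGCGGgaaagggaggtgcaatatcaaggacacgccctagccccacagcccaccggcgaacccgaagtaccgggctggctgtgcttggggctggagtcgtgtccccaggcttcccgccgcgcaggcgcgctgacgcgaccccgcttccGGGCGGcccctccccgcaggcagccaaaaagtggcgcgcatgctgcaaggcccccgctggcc
Paics (chr5:76951052-76951351, plus strand): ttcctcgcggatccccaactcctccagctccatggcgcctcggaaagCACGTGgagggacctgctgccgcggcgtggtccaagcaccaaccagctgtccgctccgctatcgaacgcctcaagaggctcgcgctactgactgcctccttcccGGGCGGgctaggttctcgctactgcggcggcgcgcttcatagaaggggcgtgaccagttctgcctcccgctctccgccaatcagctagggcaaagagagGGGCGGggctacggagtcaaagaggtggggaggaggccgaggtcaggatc
Atic (chr1:71556906-71557205, plus strand): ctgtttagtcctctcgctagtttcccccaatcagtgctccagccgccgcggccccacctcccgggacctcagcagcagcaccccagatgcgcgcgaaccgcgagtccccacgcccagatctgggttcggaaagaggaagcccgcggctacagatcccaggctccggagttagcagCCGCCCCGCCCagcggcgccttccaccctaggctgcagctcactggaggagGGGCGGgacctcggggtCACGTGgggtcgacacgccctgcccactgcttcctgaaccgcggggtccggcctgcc
Impdh2 (chr9:108560186-108560485, plus strand): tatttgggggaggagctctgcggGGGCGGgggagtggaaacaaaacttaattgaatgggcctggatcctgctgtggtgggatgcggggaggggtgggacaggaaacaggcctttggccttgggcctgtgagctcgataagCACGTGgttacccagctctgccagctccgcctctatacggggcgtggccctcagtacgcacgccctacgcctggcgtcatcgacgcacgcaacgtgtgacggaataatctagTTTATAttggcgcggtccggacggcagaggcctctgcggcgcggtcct

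All 10 genes had a window, and Impdh1 and Adk had 2 each, 12 in all. Each gene had at least 1 GC box match. These windows were rich in G and C, at 57.7% to 75%, against a median of 52.7% over all windows. The part of this in the matches was not tested. In the Hprt window, 3 GC boxes began 29, 16 and 4 bases before the start. The E-box was found in 3 of the 10 genes, all among the windows shown, and not in Gart. It began 203 bases before the start of Paics, 110 before that of Impdh2 and 7 before that of Atic. In Atic, 2 of the 3 GC box matches overlap each other. The TATA letters were found in Impdh2 alone, from 2 bases after its start. These matches describe letters and do not show binding. The RefSeq spans of Ppat and Paics overlap by 277 bases; the library kit does not mark strand, so fragments from the overlap cannot be assigned to either gene by strand.

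Hprt was low in every Nanog-null sample and high in every WT sample, whatever the cell type. It had 6.97 and 6.91 FPKM in Nanog-null ESC, 9.90 and 12.6 FPKM in clone G2 and 5.57 and 6.71 FPKM in clone G5. In AC samples it had 119.7 and 126.7 FPKM in WT ESC and 105.5 FPKM in WT iPSC. In JI samples it had 200.01 and 184.7 FPKM in WT ESC and 250.2 and 229.8 FPKM in WT iPSC. The piPSC had 193.9 and 163.6 FPKM and the MEF 69.4 and 77.6 FPKM. The 6 Nanog-null samples lay below all 11 WT samples: the lowest WT sample, a MEF, was 5.51 times the highest Nanog-null sample, of clone G2.

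The mean of Hprt was 8.11 ± 2.62 FPKM in Nanog-null samples (SD, n = 6) and 117 ± 10.8 FPKM in AC samples of WT ESC and iPSC (SD, n = 3), a ratio of 6.91%. On the scale of log2(FPKM + 1), with batch in the fit, the change was -3.86 ± 0.15 (SE) in Nanog-null ESC against WT ESC and -3.73 ± 0.14 in Nanog-null iPSC against WT iPSC. Hprt still had 191 to 446 assigned fragments in each Nanog-null sample, against 705 to 7295 in WT samples. Among 9467 genes with a mean of at least 5 FPKM, none had a larger ratio of the lowest WT to the highest Nanog-null sample. The next genes were 2810417H13Rik with a ratio of 4.18, Gm10159 with 4.15, Hmga1 with 4.09 and Phgdh, the first enzyme of serine synthesis, with 3.41. This is the value Hprt was chosen for.

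The level of Hprt in Nanog-null samples had the same order as their fibroblast RNA. As a share of the MEF mean, Hprt reached 9.48% and 9.40% in the Nanog-null ESC. Clone G2 had 13.5% and 17.1% and clone G5 had 7.58% and 9.14%. The summed FPKM of 11 fibroblast and feeder genes, collagens and Postn among them, was at 13.8% and 13.6% of the MEF mean in the Nanog-null ESC. It was at 19.5% and 20.5% in clone G2 and at 8.64% in each sample of clone G5. In both quantities clone G2 was highest and clone G5 lowest. The AC samples of WT ESC and iPSC had 2.96% to 4.49% of the MEF mean of these 11 genes. None of the 11 genes was at 0 in any group. The other marker sums had other orders. The sum of 5 macrophage genes was at 11.3% to 11.6% of the MEF mean in clone G5. It was at 8.18% to 8.44% in clone G2 and 3.55% to 3.91% in the Nanog-null ESC. Among Nanog-null groups, the primitive endoderm sum was highest in ESC and the pluripotency sum in clone G5. The part of feeder or fibroblast RNA in the Hprt level was not tested.

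**Figure D1:**
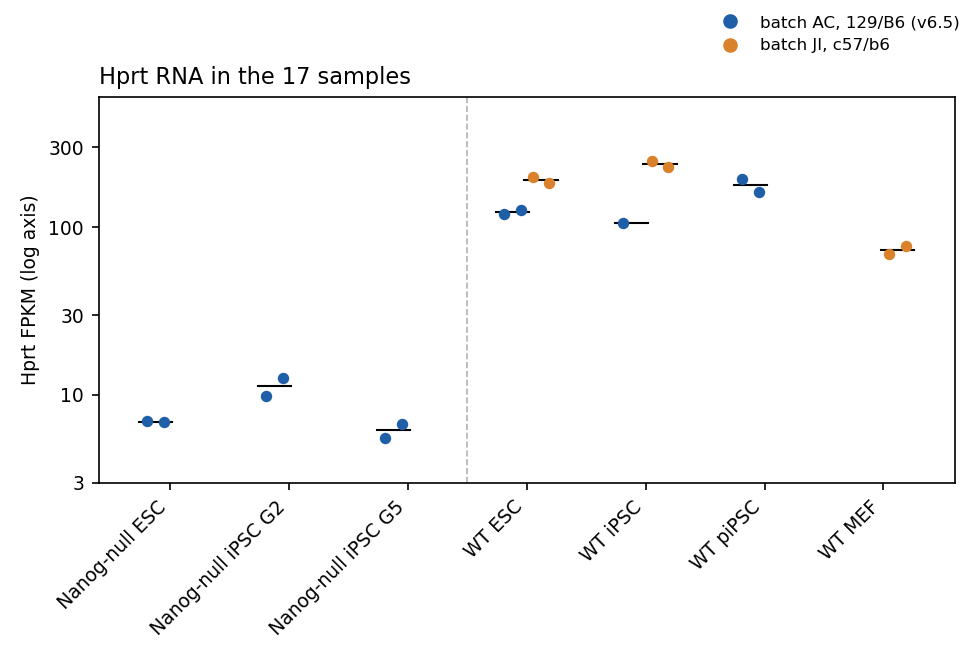
Hprt RNA in FPKM (log axis) in each of the 17 samples, by group, with Nanog-null groups left of the dashed line and WT groups right of it. Points are samples, coloured by batch and strain, and bars are means within a batch: Nanog-null samples lie between 5.57 and 12.6 FPKM and WT samples between 69.4 and 250.2 FPKM.

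Among the WT groups, Hprt was highest in JI samples of WT iPSC, with a mean of 240.0 FPKM. JI samples of WT ESC (192 FPKM) and the piPSC (179 FPKM) overlapped, and AC samples of WT ESC (123 FPKM), the AC sample of WT iPSC (105.5 FPKM) and MEF (73.5 FPKM) followed without overlap. Within the Nanog-null groups the order was clone G2 (11.2 FPKM), ESC (6.94 FPKM) and clone G5 (6.14 FPKM), and the samples of these groups did not overlap.

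The 9 other genes did not move as 1 block in Nanog-null cells. Ppat, Gart, Paics, Atic and Impdh2 were lower, Aprt and Impdh1 were higher, and Adsl and Adk did not pass the test. With Nanog-null ESC and iPSC set against WT ESC and iPSC, the counts were 2 higher and 5 lower of 9. Of all 15298 genes tested, 63.3% passed in this comparison, 31.7% in each direction. The count of 7 of 9 is close to that share, and with so many genes changed the count alone says little about purine genes. The median change of the 9 genes was -0.39 on the log2 scale and that of all genes tested -0.01. The test was limma on log2(FPKM + 1) over all 17 samples with batch as a term and Benjamini-Hochberg adjustment over all genes, at an adjusted p of 0.05. The comparisons of all Nanog-null samples, of ESC alone and of iPSC alone share samples and are given side by side.

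Paics, which carries 2 steps in the middle of the route, had the largest change of the de novo genes among the 10. It had 160.3 and 163.8 FPKM in Nanog-null ESC, 142.7 and 142.9 FPKM in clone G2 and 147.2 and 162.7 FPKM in clone G5, against 426.1 and 429.1 FPKM in AC samples and 422.5 and 561.1 FPKM in JI samples of WT ESC. WT iPSC had 275.9 FPKM in the AC sample and 533.6 and 484.8 FPKM in the JI samples. Every Nanog-null sample lay below every WT ESC and iPSC sample, and above both MEF samples. Paics fell by 1.26 ± 0.16 in ESC (limma adjusted p = 3.2e-05) and by 1.16 ± 0.16 in iPSC (limma adjusted p = 3.8e-05), on the log2 scale with SE. In AC samples alone the changes were -1.39 and -0.89.

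Ppat, the enzyme of the first committed step, had 27.6 and 28.5 FPKM in Nanog-null ESC, 25.1 and 25.6 FPKM in clone G2 and 23.6 and 23.8 FPKM in clone G5. The AC samples had 49.5 and 51.5 FPKM in WT ESC and 46.9 FPKM in WT iPSC, and the JI samples 18.5 and 26.6 FPKM in WT ESC and 23.2 and 20.5 FPKM in WT iPSC. Nanog-null samples were at 52.1% of the AC mean without overlap, but overlapped the JI samples. Ppat fell by 0.81 ± 0.12 in ESC (limma adjusted p = 0.00012) and by 0.94 ± 0.12 in iPSC (limma adjusted p = 2.2e-05). The call rests on the batch term: without it the change over both cell types was -0.22 with an adjusted p of 0.47. In AC samples alone it was -0.87. The authors' deposited interval of Ppat ran from 0 to 100 FPKM around 36.5 FPKM in WT ESC. In WT iPSC it ran from 0 to 107 FPKM around 30.2 FPKM, so the level of Ppat is less certain in these groups.

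Gart, a protein with 3 activities of the route, had 61.6 and 61.9 FPKM in Nanog-null ESC, 54.0 and 54.6 FPKM in clone G2 and 53.6 and 55.2 FPKM in clone G5. WT ESC had 92.1, 105.2, 81.5 and 76.6 FPKM, and WT iPSC 94.3, 90.4 and 92.3 FPKM. Every Nanog-null sample lay below every WT ESC and iPSC sample, of either batch. Gart fell by 0.61 ± 0.09 in ESC (limma adjusted p = 7.3e-05) and by 0.89 ± 0.08 in iPSC (limma adjusted p = 1.8e-06).

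Atic, which completes the IMP ring, had the smallest change of the 5 lower genes. It had 37.7 and 38.6 FPKM in Nanog-null ESC, 33.1 and 32.6 FPKM in clone G2 and 29.8 and 33.3 FPKM in clone G5. The AC samples had 43.1 and 45.8 FPKM in WT ESC and 48.5 FPKM in WT iPSC, and the JI samples 36.7 to 42.3 FPKM. Nanog-null samples lay below the AC samples and overlapped the JI samples. Atic fell by 0.57 ± 0.07 in iPSC (limma adjusted p = 2.5e-05) and by 0.22 ± 0.08 in ESC (limma adjusted p = 0.029). The ESC call was lost under 5 alternatives, with adjusted p of 0.077 to 0.47, and without WT ESC 2 (0.11), Nanog-null ESC 1 (0.14) or Nanog-null ESC 2 (0.088).

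Adsl acts in both the IMP route and the AMP branch and did not follow the other de novo genes. It had 51.5 and 49.8 FPKM in Nanog-null ESC, 41.9 and 38.2 FPKM in clone G2 and 57.3 and 59.7 FPKM in clone G5, against 47.9, 47.8, 54.6 and 53.1 FPKM in WT ESC and 41.2, 65.7 and 52.9 FPKM in WT iPSC. The groups overlapped. The difference over both cell types was 0.12 on the log2 scale, with a 95% interval of -0.06 to 0.30 (limma adjusted p = 0.22). It passed at 0.15 in AC samples alone (limma adjusted p = 0.0096) and at 0.23 with quantile normalization.

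The 2 isozymes of IMP dehydrogenase, the entry to the GMP branch, moved in opposite directions in ESC. Impdh2 had 124.3 and 126.3 FPKM in Nanog-null ESC, 100.8 and 107.8 FPKM in clone G2 and 103.7 and 110.3 FPKM in clone G5. The AC samples had 200.3 and 224.1 FPKM in WT ESC and 198.3 FPKM in WT iPSC, and the JI samples 304.2 to 421.6 FPKM. Every Nanog-null sample lay below every WT ESC and iPSC sample and near the MEF samples, at 96.2 and 107.7 FPKM. Impdh2 fell by 0.71 ± 0.15 in ESC (limma adjusted p = 0.0015) and by 0.98 ± 0.15 in iPSC (limma adjusted p = 9.0e-05).

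Impdh1 had 20.7 and 20.8 FPKM in Nanog-null ESC, 20.1 and 20.2 FPKM in clone G2 and 16.9 and 16.2 FPKM in clone G5. WT ESC had 10.4, 10.2, 9.87 and 6.97 FPKM. WT iPSC 1 had 22.5 FPKM and WT iPSC 2 and 3 had 9.65 and 11.8 FPKM. Nanog-null ESC lay above all WT ESC, while the Nanog-null iPSC lay between the AC sample and the JI samples of WT iPSC. Impdh1 rose by 0.80 ± 0.17 in ESC (limma adjusted p = 0.0019), and its difference in iPSC was 0.01, with a 95% interval of -0.36 to 0.37 (limma adjusted p = 0.98). Over both cell types Impdh1 rose by 0.40 ± 0.13 (limma adjusted p = 0.019), a call that was lost without WT ESC 1 (0.079) or WT ESC 2 (0.086). WT iPSC 1 decides the iPSC value: without it, the difference was 0.45 (limma adjusted p = 0.044), and in AC samples alone -0.29 (limma adjusted p = 0.0019).

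Aprt, the salvage enzyme beside Hprt, did not fall in Nanog-null cells. It had 124.4 and 117.7 FPKM in Nanog-null ESC, 142.6 and 128.0 FPKM in clone G2 and 161.1 and 165.0 FPKM in clone G5. The AC samples had 119.9 and 122.2 FPKM in WT ESC and 81.4 FPKM in WT iPSC, and the JI samples 505.3 and 312.8 FPKM in WT ESC and 431.9 and 417.9 FPKM in WT iPSC. Nanog-null ESC overlapped the AC samples of WT ESC, and the Nanog-null iPSC lay above the single AC sample of WT iPSC. Aprt rose by 0.59 ± 0.18 in iPSC (limma adjusted p = 0.014), but without WT iPSC 1 the difference was 0.20 (limma adjusted p = 0.47). In ESC the difference was 0.13, with a 95% interval of -0.27 to 0.54 (limma adjusted p = 0.58). Over both cell types the difference was 0.36 ± 0.15 (limma adjusted p = 0.044); it was 0.10 without WT iPSC 1 (limma adjusted p = 0.61) and turned to -0.79 without a batch term (limma adjusted p = 0.14). Leaving out any 1 of 9 other samples (both Nanog-null ESC, G2 1, both of G5, both piPSC or both MEF) also lost that call, at 0.34 to 0.38 with adjusted p of 0.057 to 0.10, so it lies at the threshold. In the authors' deposited table, the interval of Aprt reached down to 0 FPKM in all 7 groups, for example 0 to 613 FPKM around 121 FPKM in Nanog-null ESC, so its level is less certain than that of Hprt.

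Adk, the adenosine kinase, had 22.8 FPKM in each Nanog-null ESC sample, 24.1 and 24.6 FPKM in clone G2 and 15.5 and 16.8 FPKM in clone G5. The AC samples had 24.8 and 25.97 FPKM in WT ESC and 19.5 FPKM in WT iPSC, and the JI samples 43.6 to 49.2 FPKM. The difference was -0.10 over both cell types, with a 95% interval of -0.28 to 0.08 (limma adjusted p = 0.30). Without a batch term it was -0.66 (limma adjusted p = 0.022), and without WT iPSC 1 it was -0.27 (limma adjusted p = 0.0098).

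Counted by sample, 5 of the 9 genes (Ppat, Gart, Paics, Atic and Impdh2) had all 6 Nanog-null samples below the 3 AC samples of WT ESC and iPSC, where 27.1% of all genes tested did. Gart, Paics and Impdh2 also lay below all 7 WT ESC and iPSC samples, where 16.9% of all genes did. None of the 9 lay below all 11 WT samples, where 3.37% of all genes did, Hprt among them. None lay above all 11 either, where 5.11% of all genes did, or above all 7 WT ESC and iPSC samples or the 3 AC samples among them, where 17.1% and 27.1% did.

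**Figure D2:**
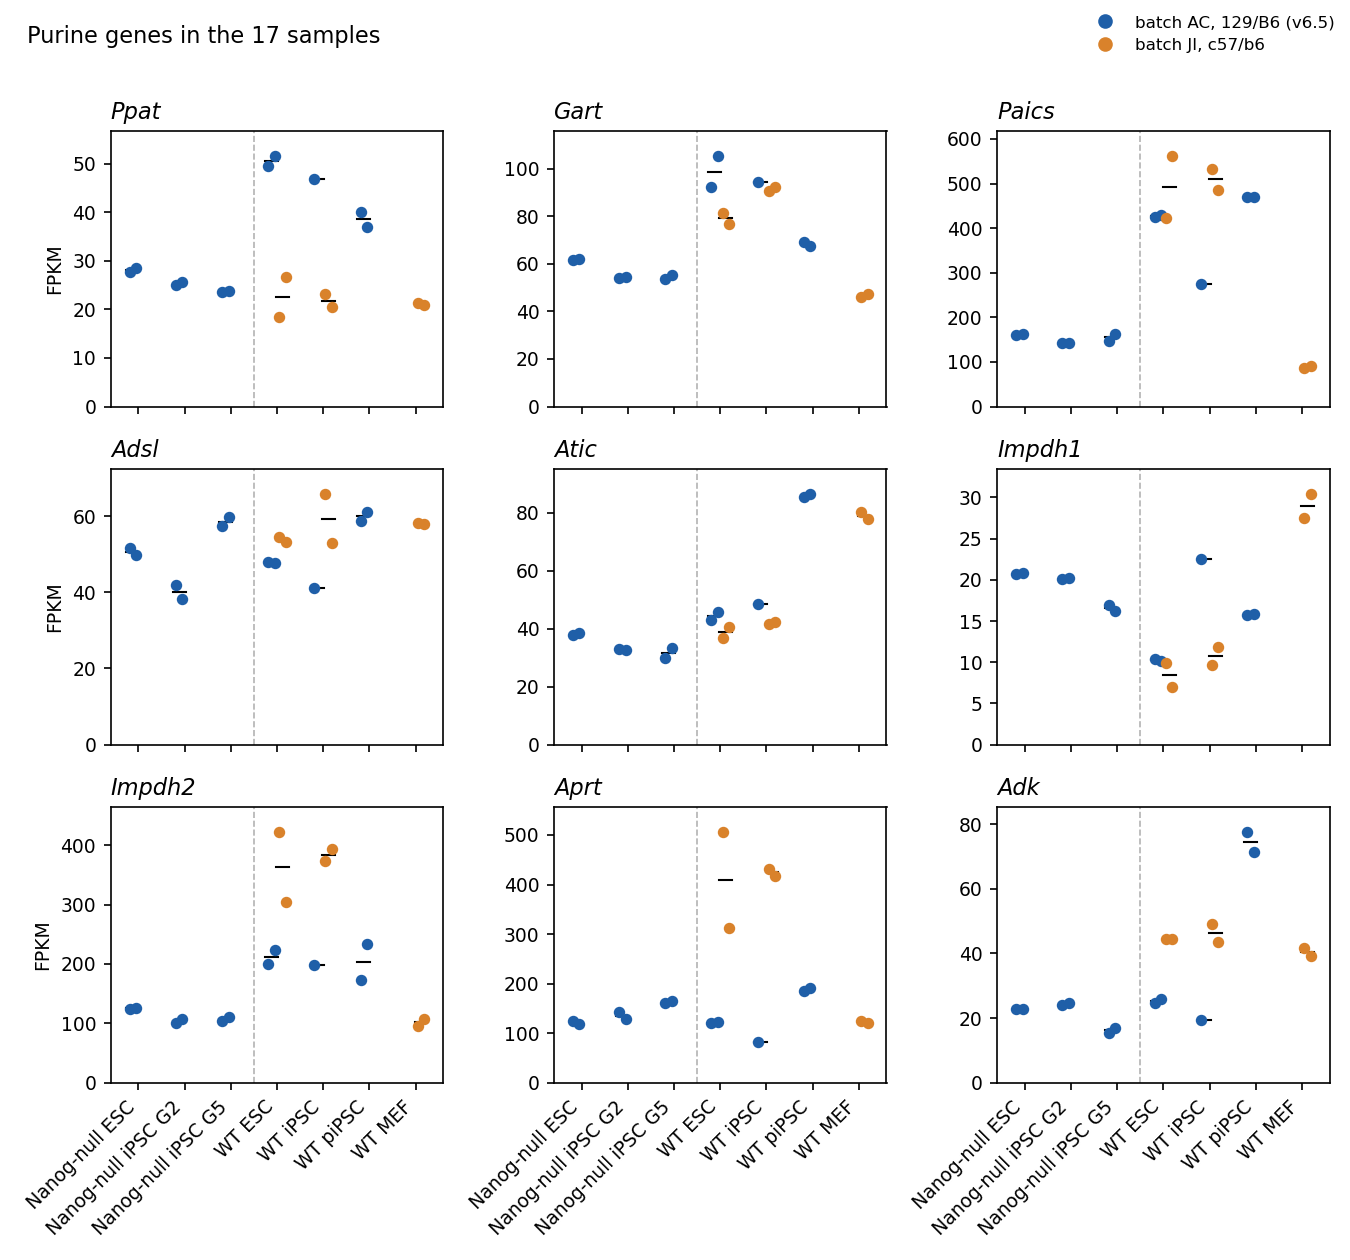
FPKM of the 9 genes other than Hprt in each of the 17 samples (linear axes from 0), with Nanog-null groups left of the dashed line. Points are samples coloured by batch and strain, and bars are means within a batch: Gart, Paics and Impdh2 are lower in all Nanog-null samples than in all WT ESC and iPSC samples, while Aprt, Adk and Ppat differ more between the batches.

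In Nanog-null ESC against WT ESC, 1 of the 9 genes was higher and 5 were lower. Of all genes tested, 53.8% passed, 27.4% higher and 26.4% lower. In Nanog-null iPSC against WT iPSC, 1 was higher and 5 were lower. Of all genes, 57.4% passed, 28.7% in each direction. The test of the difference between the 2 effects passed for Atic at -0.36 ± 0.09 (limma adjusted p = 0.027) and for Impdh1 at -0.80 ± 0.21 (limma adjusted p = 0.032), 2 of 9 genes. Of all genes 11.0% passed, 5.79% higher and 5.24% lower. Both differences are negative, so the iPSC effect was the lower of the 2 for both genes. Neither is stable to leaving out samples. The Impdh1 call was lost without any 1 of 10 samples, with adjusted p of 0.052 to 0.13, and was at -0.50 without WT iPSC 1. That of Atic was lost without WT ESC 1, either Nanog-null ESC sample, either sample of clone G2 or G5 1, with adjusted p of 0.056 to 0.13.

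**Figure D3:**
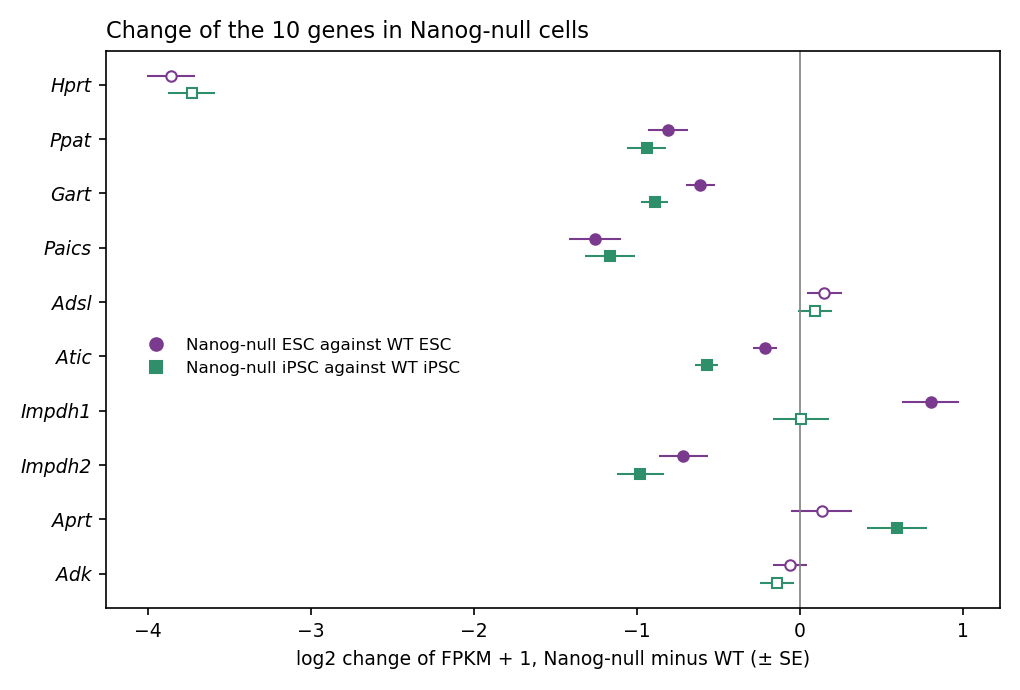
Change of each of the 10 genes on the scale of log2(FPKM + 1) in Nanog-null ESC against WT ESC (circles) and Nanog-null iPSC against WT iPSC (squares), with SE. Filled points passed the adjusted p of 0.05; Hprt, at -3.86 and -3.73, is open because it was not tested, and Paics, at -1.26 and -1.16, has the largest changes among the others.

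The wider purine pathway was counted from fixed lists. Of all genes tested, 31.7% were lower and 31.7% higher in Nanog-null cells, with a median of -0.01. Of 9 genes that make IMP, PRPP synthetases included, 6 were lower and 1 was higher, with a median change of -0.75. Of 7 genes of the AMP and GMP branches, 5 were lower and 2 higher (median -0.48). These lists hold the members above, so the counts are not separate from them. Prps1, which makes PRPP, fell by 1.24 ± 0.06 (limma adjusted p = 5.5e-09). It had 33.0 to 43.7 FPKM in Nanog-null samples, against 81.5 to 101.2 FPKM in AC and 126 to 136 FPKM in JI samples of WT ESC and iPSC. Prps1 has a near-copy, Prps1l3, and how reads were divided between them was not tested. Prps2, the other PRPP synthetase, rose by 0.81 ± 0.13 (limma adjusted p = 0.00016), with 15.1 to 16.8 FPKM in Nanog-null samples, against 5.43 to 15.2 FPKM in AC and 13.1 to 19.9 FPKM in JI samples.

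Pfas, the enzyme between the Gart steps, fell by 1.21 ± 0.14 (limma adjusted p = 6.2e-06). It had 10.7 to 14.8 FPKM in Nanog-null samples, against 27.4 to 41.9 FPKM in AC samples, and the JI samples at 9.12 to 12.8 FPKM overlapped the Nanog-null range. In the branches, Adss, which leads to AMP, fell by 0.81 ± 0.06 (limma adjusted p = 2.7e-07), with 38.8 to 46.8 FPKM in Nanog-null samples, against 60.9 to 79.2 FPKM in WT ESC and iPSC. Gmps, which makes GMP, fell by 0.60 ± 0.06 (limma adjusted p = 1.4e-06), with 9.65 to 11.6 FPKM in Nanog-null samples, against 16.3 to 29.3 FPKM in WT ESC and iPSC. Adssl1, an isozyme of Adss, rose by 0.69 ± 0.16 (limma adjusted p = 0.0024).

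Of 8 salvage genes other than Hprt, 2 were higher and 3 lower, with a median of -0.13, which is near the 31.7% of all genes in each direction. Ada, which deaminates adenosine, rose by 1.06 ± 0.16 (limma adjusted p = 6.2e-05), with 3.39 to 5.34 FPKM in Nanog-null samples, against 0.718 to 2.74 FPKM in AC and 4.11 to 5.04 FPKM in JI samples. Mtap, which recovers adenine from methylthioadenosine, fell by 0.81 ± 0.08 (limma adjusted p = 1.6e-06), with 12.8 to 19.2 FPKM in Nanog-null samples, against 25.1 to 37.1 FPKM in AC and 28.8 to 32.7 FPKM in JI samples. Dck and Dguok, which phosphorylate deoxynucleosides, fell by 0.57 and 0.37 (limma adjusted p = 9.4e-05 and 0.040).

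Of 10 breakdown genes, 4 were higher and 3 lower (median 0.03), also near the 31.7% of all genes in each direction. The lower genes were Ampd1 at -0.47, Ampd3 at -0.31 and Nt5c3 at -0.28; Ampd3 and Nt5c3 are named to complete the count, chosen after their values were seen. Nt5e, the enzyme on the cell surface that turns AMP into adenosine, rose by 2.37 ± 0.16 (limma adjusted p = 8.0e-08). It had 8.69 to 9.76 FPKM in Nanog-null samples, against 0.462 to 2.29 FPKM in WT ESC and iPSC, and the Nanog-null samples did not overlap the WT ESC and iPSC samples. The piPSC had more, at 40.1 to 44.8 FPKM, and the MEF 2.04 to 2.33 FPKM. Xdh, which makes xanthine and uric acid, rose by 1.21 ± 0.11 (limma adjusted p = 6.9e-07). It had 1.68 to 4.06 FPKM in Nanog-null samples, against 0.0212 to 0.623 FPKM in WT ESC and iPSC and 1.58 to 2.70 FPKM in MEF. Gda, the guanine deaminase, rose by 0.80 ± 0.09 (limma adjusted p = 3.9e-06), with 0.931 to 2.39 FPKM in Nanog-null samples, against 0.271 to 0.693 FPKM in WT ESC and iPSC.

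Of 11 nucleotide kinase and reductase genes, 2 were higher and 7 lower (median -0.32), where 31.7% of all genes were in each direction. Rrm2, a subunit of ribonucleotide reductase, fell by 1.28 ± 0.08 (limma adjusted p = 2.2e-08), with 43.5 to 61.5 FPKM in Nanog-null samples, against 113 to 140 FPKM in WT ESC and iPSC. Of 7 transporter genes, 3 were higher and 1 lower (median 0.15), and Slc29a1, an equilibrative nucleoside transporter, rose by 0.50 ± 0.06 (limma adjusted p = 9.7e-06). Of 12 pyrimidine genes, listed as the other nucleotide route, 1 was higher and 7 were lower (median -0.39). Umps, which completes UMP, fell by 1.06 ± 0.11 (limma adjusted p = 4.1e-06), with 12.8 to 18.4 FPKM in Nanog-null samples, against 30.4 to 47.0 FPKM in WT ESC and iPSC. The pyrimidine genes had lower calls too; no difference between the lists was tested.

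**Figure D4:**
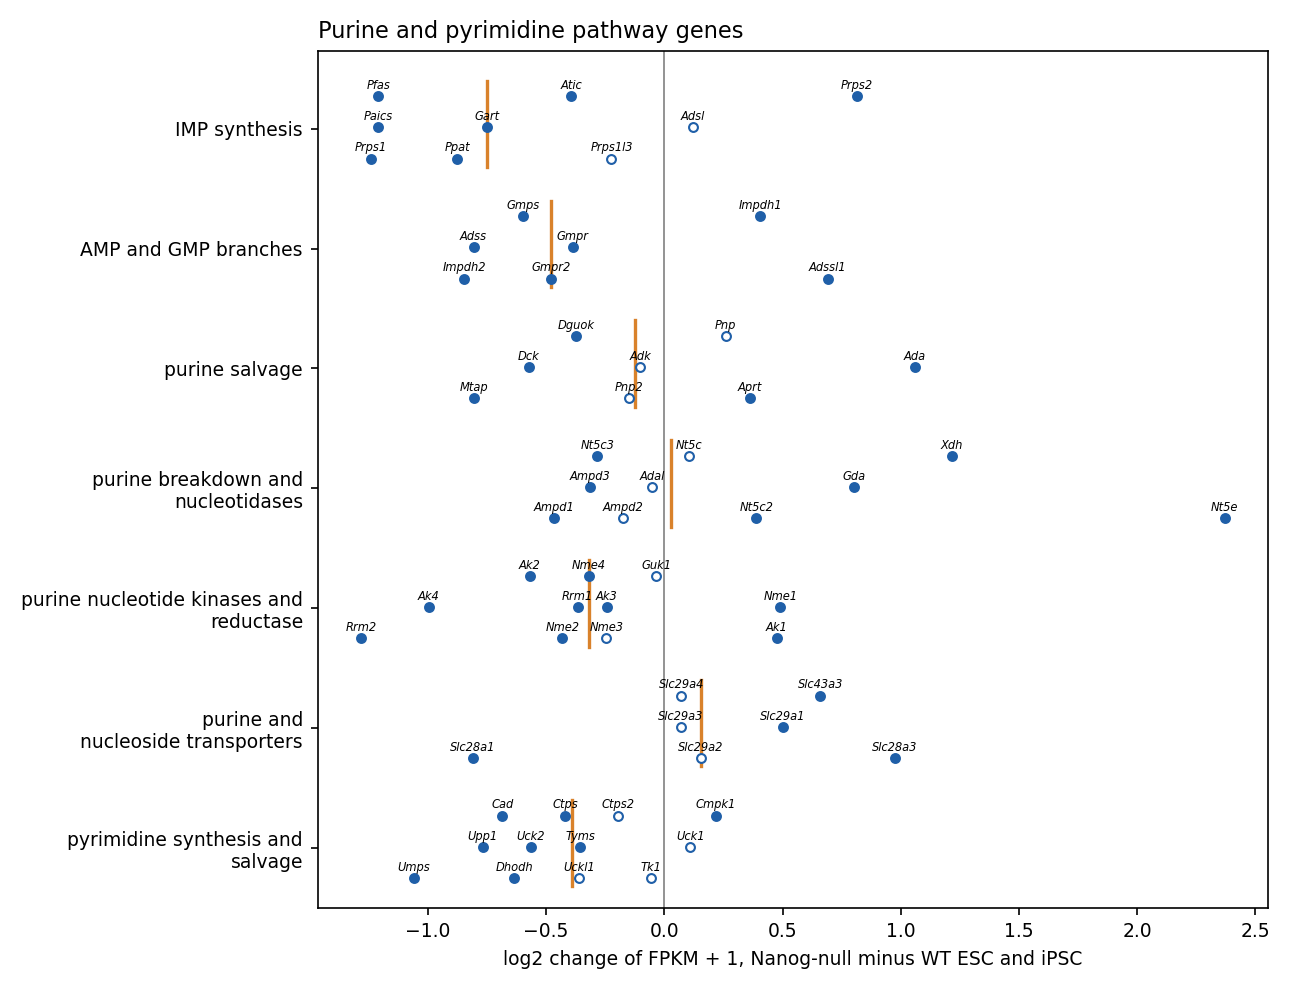
Change of the genes of 7 purine and pyrimidine lists on the scale of log2(FPKM + 1), Nanog-null against WT ESC and iPSC, without Hprt. Each point is a gene, filled where it passed the adjusted p of 0.05, and the bar is the list's median: it is -0.75 for IMP synthesis and 0.03 for breakdown, where Nt5e stands out at 2.37.

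The genes beside Hprt on the X chromosome were read to see whether they moved with it. In RefSeq order, Gpc3, Ccdc160 and Phf6 come before Hprt and Plac1, Fam122b and Fam122c after it. Phf6, a chromatin protein gene and the nearest before Hprt, fell by 0.94 ± 0.06 (limma adjusted p = 4.4e-08). It had 3.04 to 3.95 FPKM in Nanog-null samples, against 7.20 to 7.52 FPKM in AC samples and 10.1 to 11.0 FPKM in JI samples of WT ESC and iPSC. Plac1, a gene of the placenta and the nearest after Hprt, rose by 4.29 ± 0.17 (limma adjusted p = 5.2e-10). It had 14.1 to 25.3 FPKM in Nanog-null samples, against 0 to 1.33 FPKM in the 11 WT samples.

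Neither of these neighbours overlapped between Nanog-null and WT ESC and iPSC samples, and they moved in opposite directions. Of all genes tested, 16.9% lay below and 17.1% above all 7 WT ESC and iPSC samples, and 63.3% passed the test. Phf6 also lay below all 11 WT samples, where 3.37% of all genes tested did. Plac1 lay above all 11, where 5.11% did. With so many genes passing the test, the calls alone say little about the Hprt region. A shift of the region was not tested. Gpc3, a cell surface proteoglycan gene, rose by 0.45 ± 0.07 (limma adjusted p = 0.00014). It had 11.9 to 31.7 FPKM in Nanog-null samples, against 12.04 to 15.4 FPKM in AC and 111 to 130.1 FPKM in JI samples. The Nanog-null groups differed, with means of 31.3 FPKM in clone G2, 17.3 FPKM in ESC and 12.6 FPKM in clone G5. The mean of clone G5 lay within the AC range. Ccdc160 and Fam122b had differences of -0.16 (limma adjusted p = 0.56) and -0.05 (limma adjusted p = 0.76). Fam122c had at most 0.373 FPKM and was not tested.

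**Figure D5:**
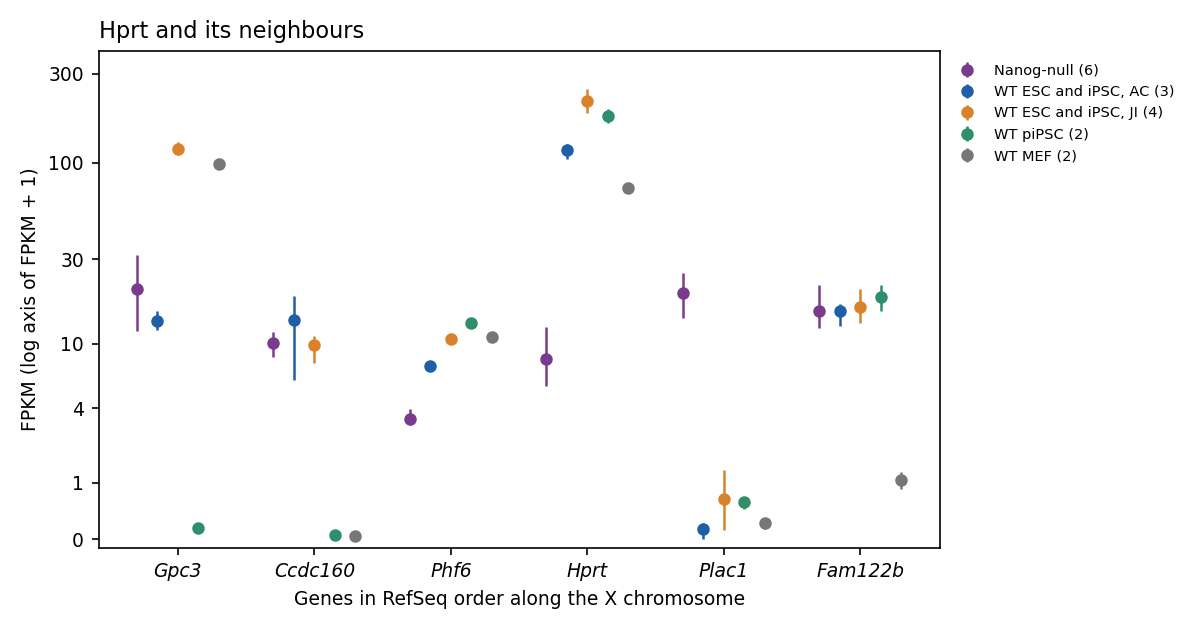
FPKM (log axis of FPKM + 1) of Hprt and 5 neighbouring genes, in RefSeq order, with the mean and the range from the lowest to the highest sample. Nanog-null samples are drawn left of the WT sets, with the number of samples in the legend: Hprt and Phf6 are lower and Plac1 is higher in Nanog-null samples than in all WT sets.

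Clones G2 and G5 differed in Hprt, with 9.90 and 12.6 FPKM in G2 and 5.57 and 6.71 FPKM in G5, and they differed in 2 of the other 9 genes. Adk was higher in G2 by 0.56 ± 0.11 (limma adjusted p = 0.011) and Adsl was lower by 0.54 ± 0.11 (limma adjusted p = 0.015), where 5.36% of all genes passed, 3.14% higher and 2.22% lower in G2. The samples of the 2 clones did not overlap for either gene, nor for Aprt, Ppat, Paics and Impdh1, which did not pass the test. The share of all genes without overlap between the clones was not counted. The lack of overlap therefore has no reference, and alone says little about these genes. Each clone had 2 samples, and the Adsl call was lost when any 1 of the 4 was left out, with adjusted p of 0.055 to 0.17. The Adk call was lost without either G2 sample or G5 1, with adjusted p of 0.071 to 0.11. The tests of Nanog-null iPSC above had a term for each clone and so leave out the spread between clones.

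Hprt RNA in piPSC lay between the AC and the JI samples of WT iPSC. It was at 193.9 and 163.6 FPKM in piPSC, against 105.5 FPKM in the AC sample of WT iPSC and 250.2 and 229.8 FPKM in the JI samples, which differ in strain. With batch in the fit, Hprt rose by 0.53 ± 0.16 (limma adjusted p = 0.012). The call was lost without WT iPSC 1 (0.21, limma adjusted p = 0.32) and without piPSC 1 (0.41, limma adjusted p = 0.093), and without a batch term the difference was -0.03.

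Of the other 9 genes, 5 were higher and 1 lower in piPSC than in WT iPSC, where 64.7% of all genes passed, 30.5% higher and 34.2% lower. Adk had 77.4 and 71.4 FPKM in piPSC, against 19.5 FPKM in WT iPSC 1 and 49.2 and 43.6 FPKM in WT iPSC 2 and 3, and rose by 1.71 ± 0.12 (limma adjusted p = 4.8e-08). Atic had 85.5 and 86.4 FPKM in piPSC, against 48.5, 41.5 and 42.3 FPKM in WT iPSC, and rose by 0.82 ± 0.08 (limma adjusted p = 2.1e-06). Both genes lay above every WT iPSC sample. Aprt, Paics and Adsl rose by 0.93, 0.49 and 0.39 (limma adjusted p = 0.0016, 0.028 and 0.010), and without WT iPSC 1, the only AC sample of its group, the differences were 0.53, 0.07 and 0.19, none of which passed. The Paics call was also lost without piPSC 1 or 2 (limma adjusted p = 0.083 and 0.084), and that of Adsl without piPSC 2 (limma adjusted p = 0.052). Gart fell by 0.57 ± 0.10 (limma adjusted p = 0.00017), with 69.0 and 67.4 FPKM in piPSC, against 90.4 to 94.3 FPKM in WT iPSC.

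In MEF against WT ESC, Hprt, Aprt, Paics, Gart and Impdh2 were lower and Atic and Impdh1 higher: of the 9 genes other than Hprt, 4 were lower and 2 higher, where 80.1% of all genes passed, 41.3% lower and 38.8% higher. Hprt had 69.4 and 77.6 FPKM in MEF, against 200.01 and 184.7 FPKM in the WT ESC of the same batch, and fell by 1.49 ± 0.15 (limma adjusted p = 6.9e-07). Paics had 87.4 and 90.1 FPKM in MEF, against 422.5 and 561.1 FPKM, and fell by 2.58 ± 0.16 (limma adjusted p = 6.8e-09). The MEF levels of both genes lay below those of all WT ESC. Impdh2 fell by 1.84 ± 0.15 (limma adjusted p = 9.0e-08) while Impdh1 rose by 1.83 ± 0.17 (limma adjusted p = 4.5e-07), with 27.5 and 30.4 FPKM in MEF, against 9.87 and 6.97 FPKM in JI samples of WT ESC. Aprt fell by 1.82 (limma adjusted p = 9.8e-07), a call lost without a batch term (-0.83, limma adjusted p = 0.30). Gart fell by 0.80 (limma adjusted p = 1.5e-06), and Atic rose by 1.01 (limma adjusted p = 3.7e-08). In JI samples alone the changes were -1.38 for Hprt, -2.44 for Paics, -1.80 for Impdh2, 1.68 for Impdh1, -1.69 for Aprt, -0.75 for Gart and 1.01 for Atic.

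The batches differed in these genes within the same WT groups. The mean over JI samples of WT ESC and iPSC was 3.87 times the mean over AC samples for Aprt, 1.94 times for Adk, 1.84 times for Hprt and 1.80 times for Impdh2. It was 1.33 times for Paics, 1.24 times for Adsl, 0.88 times for Gart and Atic, 0.67 times for Impdh1 and 0.45 times for Ppat. Aprt, Adk, Hprt, Impdh2 and Adsl did not overlap, with the JI samples above, where 33.7% of all genes did so. Ppat and Atic did not overlap, with the JI samples below, where 30.1% of all genes did so. All Nanog-null samples were AC samples, so the comparisons above lean on the 2 WT ESC and 1 WT iPSC samples of that batch.

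The genes whose RNA was most like that of Hprt, by Pearson correlation of log2(FPKM + 1) over the 17 samples among 9471 genes, were Bri3bp (r = 0.965), Gnpnat1 (0.962), Mios (0.961), Guf1 (0.960), 2810417H13Rik (0.960) and Pla2g4b (0.957). All 6 had every Nanog-null sample below every WT sample, where 3.37% of all genes tested did. They were picked for likeness to Hprt, which has this split, so the split follows in part from the choice. Bri3bp had 3.32 to 3.76 FPKM in Nanog-null samples, against 7.05 to 15.6 FPKM in WT samples. Gnpnat1 had 12.7 to 14.5 FPKM in Nanog-null samples, against 20.4 to 34.4 FPKM in WT samples. Of the purine genes, Impdh2 was the most like Hprt (r = 0.79), followed by Adk (0.75), Paics (0.72), Gart (0.63), Atic (0.53), Aprt (0.49), Adsl (0.29), Ppat (0.21) and Impdh1 (-0.51). By Spearman correlation the order differed: Adk was at 0.86, Impdh2 at 0.81, Paics at 0.76, Gart at 0.65, Aprt at 0.55, Atic at 0.49, Adsl at 0.25, Ppat at -0.086 and Impdh1 at -0.66. These values describe points that share batch and group, with no test.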

How the data were processed

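RNA-seq libraries of 17 samples in 7 groups were read from the deposited sample tables. Per the labels' protocols, Trizol RNA with a RIN above 7.5 (about 250 ng) went into TruSeq RNA v2 libraries. Per the submitters' processing notes, TopHat2 2.0.7, Bowtie2 2.0.5, Cuffdiff 2.1.1 and CASAVA were used with the builds mm10 and NCBIM37, whose roles are not given, so no coordinates of the files' genes are given. Per the file headers, the authors deposited estimated counts of assigned fragments and the FPKM of each gene; 97.5% to 98.8% of these counts were whole to within 0.01.

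FPKM was tested as log2(FPKM + 1) by limma's moderated test (version 3.58.1, R 4.3.3, trend on). Group and batch were the terms of the fit, which left 9 residual degrees of freedom. Genes needed at least 1 FPKM in at least 2 samples; 19 genes without an OK status were left out. p was adjusted by Benjamini-Hochberg over 15298 genes, threshold 0.05. A change on this scale understates that of low genes. The script was tested on simulated data. Alternatives were edgeR 4.0.16 and DESeq2 1.42.0 on counts rounded to whole numbers, another pseudocount, filter or scaling, no batch term, single batches, only the groups compared, a replicate block, and leaving out each sample.

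The named genes were the 10 members, at most 4 called genes with the largest change per list, the 6 genes most like Hprt, and 3 neighbours on each side. Genes with the next widest gap after Hprt, and Adk and Atic as the examples in piPSC, were picked after their values were seen. The members and lists were chosen with earlier results of these data known. RefSeq tables on GRCm38.p6 gave neighbours and promoter windows. Depth limits low genes only: each member had at least 107 fragments in each sample.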

Additional observations from a re-analysis of the deposited data

Results flagged for a closer look

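In WT ESC, replicate 4 stood apart from the other samples in 2 of the 10 groups of values examined for an outlier by Dixon's test. Among samples of 1 kind, chance marks about 1 in 20. The WT ESC samples come from both batches, which differ in strain, so that rate need not hold here. Replicate 4 also had the fewest assigned fragments of all samples, 7795960. Paics had 426.1, 429.1, 422.5 and 561.1 FPKM, with the gap of replicate 4 at 0.953 of the range. Impdh1 had 10.4, 10.2, 9.87 and 6.97 FPKM, with the gap of replicate 4 at 0.845 of the range.

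The Nanog-null effect differed between iPSC and ESC for 2 of the 9 genes other than Hprt, by a test of the difference itself. Of all genes tested, 11.0% passed this test, and 5.24% were lower. Neither call was stable to leaving out samples. The iPSC effect minus the ESC effect was -0.358 for Atic (limma adjusted p = 0.027) and -0.795 for Impdh1 (limma adjusted p = 0.032), on the log2 scale. WT iPSC 1 is the only WT iPSC sample of the batch that holds the Nanog-null samples. Its Impdh1 level, 22.5 FPKM, was above that of the other WT ESC and iPSC samples. Without WT iPSC 1, the Impdh1 difference was -0.50 and did not pass (limma adjusted p = 0.084). The part of this sample was not tested further.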

How the results depend on the processing

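Hprt kept its direction in the 3 comparisons of Nanog-null with WT cells under all alternatives, at -3.52 or lower. The 10 genes had 2030 values recomputed under 13 alternatives and without each of 17 samples, and 187 did not stay the same. Of these, 67 reversed direction, 69 lost the call and 38 gained it. The remaining 13 were Hprt values in comparisons of Nanog-null samples, which kept their direction but moved in size. The causes were not tested.

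Counts of the 9 genes other than Hprt moved as follows. Over both cell types, 2 higher became 1 with no filter, without the batch term and with only the groups compared, and 3 with quantile normalization, in AC samples alone and with the replicate block. In ESC, 5 lower became 3 without the batch term and 4 with quantile normalization, depth scaling, only the groups compared or edgeR TMM. In iPSC, 1 higher became 2 with quantile normalization, in AC samples alone and with the replicate block, and 0 without the batch term, and 5 lower became 6 in AC alone. For the iPSC minus ESC difference, 0 higher became 1 (quantile, replicate block) or 2 (AC alone), and 2 lower became 1 (no filter, depth scaling by the assigned fragments, only the groups compared) or 0 (no batch term), and 3 with DESeq2. For clone G2 against G5, 1 higher became 0 without the batch term and 2 in AC alone and with only the groups compared, and 1 lower became 0 and 2 without the batch term and in AC alone. For piPSC, 5 higher became 2 without the batch term and 4 with depth scaling or edgeR TMM, and 1 lower became 3 in AC alone and 2 with only the groups compared, the replicate block, edgeR TMM or DESeq2. For MEF, 2 higher became 3 with quantile normalization or depth scaling, and 4 lower became 3 without the batch term, 5 with edgeR RLE and 6 with the replicate block or DESeq2. Leaving out 1 sample at a time gave 1 to 2 higher and 5 to 6 lower over both cell types, 1 higher and 4 to 5 lower in ESC, 1 higher and 5 to 6 lower in iPSC, 0 to 1 and 0 to 2 for the difference, 0 to 1 and 0 to 1 for the clones, 2 to 5 and 1 to 2 for piPSC, and 2 and 4 to 6 for MEF.

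Differences on the log2 scale that changed sign were the following. Over both cell types, Aprt was at -0.79 (no batch term) and Adsl was at -0.057 (no batch term). Leaving out 1 sample put Adsl at -0.017 to 0.15. In Nanog-null ESC, Aprt was at -0.85 (no batch term), -0.00014 (AC alone, only these groups) and Adsl was at -0.0032 (no batch term). Without 1 sample at a time, the ranges were Aprt at -0.00014 to 0.23 and Adk at -0.15 to 0.016. In Nanog-null iPSC, Aprt was at -0.72 (no batch term), Adsl was at -0.11 (no batch term), Impdh1 was at -0.29 (AC alone, only these groups), -0.042 (replicate block), -0.034 (TMM), -0.047 (RLE), -0.043 (DESeq2) and Adk was at 0.025 (AC alone, only these groups). Leaving out 1 sample put Adsl at -0.11 to 0.17 and Impdh1 at -0.12 to 0.45. For the iPSC minus ESC difference, Hprt was at -0.015 (no batch term), Ppat was at 0.056 (no batch term), Adsl was at 0.013 (quantile), 0.15 (AC alone), 0.077 (replicate block) and Adk was at 0.17 (AC alone), 0.023 (replicate block). Without 1 sample at a time, the ranges were Hprt at -0.088 to 0.21, Ppat at -0.25 to 0.0017, Paics at -0.19 to 0.26, Adsl at -0.19 to 0.054 and Adk at -0.25 to 0.0036. For clone G2 against G5, Gart was at 0.055 (quantile), 0.025 (depth scaling), 0.032 (TMM), 0.017 (RLE, DESeq2). Leaving out 1 sample put Gart at -0.023 to 0.019, Atic at -0.020 to 0.14 and Impdh2 at -0.085 to 0.012. In piPSC, Hprt was at -0.035 (no batch term), Aprt was at -0.38 (no batch term), Ppat was at 0.44 (no batch term), Impdh1 was at 0.19 (no batch term) and Impdh2 was at 0.25 (quantile), 0.022 (AC alone, only these groups). Without 1 sample at a time, the ranges were Impdh1 at -0.31 to 0.25 and Impdh2 at -0.27 to 0.16. In MEF, Ppat was at 0.24 (depth scaling), Adsl was at -0.32 (replicate block), -0.14 (TMM), -0.15 (RLE, DESeq2) and Adk was at 0.066 (quantile), 0.12 (depth scaling), 0.26 (no batch term). Leaving out 1 sample put Ppat at -0.26 to 0.068 and Adsl at -0.020 to 0.11.

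Replicate numbers do not pair the samples: the correlations of same-numbered deviations were -0.0556 to 0.114 over 10 pairs of groups. With the replicate block, Adsl rose by 0.14 over both cell types and by 0.18 in iPSC, and 2878 genes passed for the difference.

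Of all genes, 9691 passed over both cell types and 6347 with a mean of at least 5 FPKM; in ESC 8228, 5414 and, without the batch term, 4888; in iPSC 8778 and 5832; in piPSC 9896 and 6273; in MEF 12254 and 8038. The difference had 1686, against 1027 at the stricter filter, 158 without the batch term, 6674 in AC alone, 2878 with the replicate block, 2549 with edgeR TMM and 3069 with DESeq2, and 593 to 3290 when leaving out 1 sample. The clones had 820, against 449 with a pseudocount of 0.1, 440 at the stricter filter, 126 without the batch term, 2776 in AC alone, 2168 with only the groups compared and 1446 with DESeq2, and 232 to 1493 when leaving out 1 sample. JI samples alone give no value for comparisons with Nanog-null or piPSC samples, nor AC samples alone for MEF. The median of all genes moved by over 0.1 in MEF with depth scaling, where it was 0.15 against -0.040, and in piPSC with edgeR TMM, where it was -0.17 against -0.061. By Spearman correlation the genes most like Hprt were Mrpl50 (0.985) and Rplp0 (0.983).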

Other observations

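The wider nucleotide lists were also counted in the 2 comparisons among WT cells. In piPSC against WT iPSC, 4 of 9 IMP synthesis genes were higher and 3 lower, 4 of 8 salvage genes other than Hprt were higher and none lower, and 6 of 10 breakdown genes were higher and 4 lower, where 30.5% of all genes were higher and 34.2% lower. In MEF against WT ESC, 9 of 11 nucleotide kinase and reductase genes and 9 of 12 pyrimidine genes were lower, where 41.3% of all genes were. Of the 8 salvage genes, 1 was higher and 4 were lower in MEF.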
